A study of Mus musculus with 13 samples.

Results

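Endothelin-1, the renin-angiotensin peptides and the regulators of G protein signalling (RGS) set the tone of arterial smooth muscle. 10 genes of these systems were followed over circadian time in mouse aorta: Edn1, Ednra, Ednrb and Ece1 of the endothelin system, Agt, Agtr1a and Ace of the angiotensin system, and Rgs2, Rgs4 and Rgs5. They were chosen by name, and all probe sets that the array's annotation table pairs with them were taken, which gave 12 probe sets for 8 of the 10 genes, out of 12422 probe sets in all. Ednra and Agtr1a, the main receptors for endothelin-1 and angiotensin II on smooth muscle, have no such probe set in that table and were not analysed here.

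The tissue was whole aorta of c57/Bl6 mice. Per the labels, all mice were kept for 2 weeks under a light-dark cycle (12 h each) and then 36 h in constant darkness before sampling began, at intervals of 4 h over 48 h. RNA of 6 pooled aortae per time point was hybridised to one-colour oligonucleotide arrays at 12 time points, named by circadian time (CT) in hours from CT18 to CT62. There were 13 arrays, because CT18 had a pair. The labels give no age or sex, and do not say whether the CT18 arrays shared a pool, so these were averaged as 1 pool. Each of 6 times within the cycle was thus sampled by 2 pools 24 h apart, so precision is limited by how few arrays there are.

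Endothelin-1 is made as a long precursor, chiefly by endothelium, and is released in active form by the converting enzyme encoded by Ece1. It constricts vessels through its A receptor on smooth muscle, while the B receptor (Ednrb) on endothelium promotes relaxation and clears the peptide. Angiotensinogen (Agt) is cleaved by renin, and angiotensin-converting enzyme (Ace), which sits on the surface of endothelial cells, then forms angiotensin II. The receptors of both peptides signal through the G protein Gq, and RGS proteins end that signal by speeding the hydrolysis of GTP; Rgs2 acts mainly on Gq, and Rgs5 is a marker of pericytes and of arterial smooth muscle.

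The stretch upstream of a gene start is one place where clock factors and other regulators can bind, and it is shown for 5 members. The probe sets of Edn1, Ednrb, Ace and Rgs2 included the largest fitted 24-h amplitudes of the list. Ece1 was the only member with a canonical E-box in this window. The sequences are from RefSeq (GRCm38.p6), 250 bases before the start, 5′ to 3′ on the strand of the gene. The Ednrb window lies inside the span of its gene (chr14:103814615-103844508), before a start within the gene. So does that of Ece1 (gene at chr4:137862237-137965229). Capitals mark matches, on either strand, to any of 8 motifs. The clock motifs were the E-box, CACGTG, and the D-box, TTATGTAA. The others were the site of nuclear receptors, spelled AGGTCA, and the site of cAMP-responsive factors, spelled TGACGTCA. The site of AP-1 was searched as TGAGTCA, that of GATA factors was searched as TTATCT, and the TATA box was searched as TATAAA. The CArG box of smooth muscle genes was searched by its consensus.
Edn1, chr13:42301226-42301475, plus strand: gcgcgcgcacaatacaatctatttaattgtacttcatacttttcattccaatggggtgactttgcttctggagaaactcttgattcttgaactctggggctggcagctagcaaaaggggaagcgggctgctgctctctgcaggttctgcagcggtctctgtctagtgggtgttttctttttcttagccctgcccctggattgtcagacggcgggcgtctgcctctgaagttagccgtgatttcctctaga
Ednrb, chr14:103843702-103843951, minus strand: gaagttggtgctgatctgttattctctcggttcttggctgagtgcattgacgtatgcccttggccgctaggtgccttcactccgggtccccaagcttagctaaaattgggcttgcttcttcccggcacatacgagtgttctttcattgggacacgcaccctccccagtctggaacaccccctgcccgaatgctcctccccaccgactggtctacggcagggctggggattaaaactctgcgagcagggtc
Ece1, start 3 of 4, chr4:137913308-137913557, plus strand: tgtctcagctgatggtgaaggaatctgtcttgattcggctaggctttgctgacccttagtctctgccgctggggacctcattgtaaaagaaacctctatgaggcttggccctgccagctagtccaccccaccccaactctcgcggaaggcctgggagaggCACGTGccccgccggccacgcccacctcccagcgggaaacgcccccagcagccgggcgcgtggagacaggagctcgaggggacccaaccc
Ace, start 1 of 2, chr11:105967698-105967947, plus strand: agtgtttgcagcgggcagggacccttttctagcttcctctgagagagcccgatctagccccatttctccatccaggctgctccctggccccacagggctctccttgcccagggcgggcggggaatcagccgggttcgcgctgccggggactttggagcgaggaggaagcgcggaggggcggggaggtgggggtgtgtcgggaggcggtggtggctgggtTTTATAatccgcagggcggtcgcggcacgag
Rgs2, chr1:144004150-144004399, minus strand: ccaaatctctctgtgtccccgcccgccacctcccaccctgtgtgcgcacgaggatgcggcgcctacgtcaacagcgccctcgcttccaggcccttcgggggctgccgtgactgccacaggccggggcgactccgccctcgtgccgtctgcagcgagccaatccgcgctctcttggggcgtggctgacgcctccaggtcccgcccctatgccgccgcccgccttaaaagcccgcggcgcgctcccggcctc

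The RefSeq table held starts for 9 of the 10 genes, with 4 for Ece1 and 2 for Ace. The E-box, the site bound by the activators of the clock, was found 90 to 85 bases before that Ece1 start and is present in 6.02% of the 32851 promoters of the table. The D-box was found in none of the members' windows, against 0.819% of all promoters. Ace had TATAAA on the opposite strand 31 to 26 bases before its start 1, and the same motif lay 30 to 25 bases before the Agt start and 31 to 26 bases before the Rgs4 start, against 12.4% of all promoters. AGGTCA lay 50 to 45 bases before start 2 of Ace (14% of all) and TTATCT 238 to 233 bases before the Rgs5 start (9.99% of all). No member held the AP-1 site (4.46% of all), the site of cAMP-responsive factors (1.55%) or the CArG box (1.47%), and none of the motifs searched was found in the windows of Edn1, Ednrb and Rgs2. These matches describe letters, not bound sites, and a missing match says nothing about a factor.

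The values are the deposited intensities, on a linear scale. The floor of measurement was set at 36.7, which 20% of the positive intensities do not reach, and lower readings were treated as being at it. A probe set was called near background when its mean failed the filter used for the tests (a log2 mean of at least 5.60, equal to 48.5) or when 6 or more of the 12 pools were at the floor. By this rule 2 of the 12 probe sets were near background. They were the only Rgs4 probe set (94155_at), with an intensity below 0 on all 13 arrays (-70.3 to -0.658), and 1 of 3 for Ace (101428_at). This Ace probe set was at the floor in 10 of 12 pools and stood above it on 2 arrays, at 311 on the first CT18 array and 181 at CT50, while the second CT18 array read -70.6. The other 10 probe sets, for 7 genes, were tested. Of these, Ednrb and Agt lay close to the filter, with means equal to 50.6 and 62.9. Intensities of different probe sets do not compare, so no gene is ranked against another by level.

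The tissue content of the pools was described with marker genes, which do not show the tissue that a member's signal came from. Of 9 smooth muscle markers, 8 were on the array and 7 passed the filter, with a summed intensity of 10832 to 16037 in the pools. All 8 endothelial markers passed, at 1786 to 3235. Fat genes were measured too, with sums of 44023 to 54432. Markers of skeletal muscle (2560 to 16597), thymocytes (662 to 3847) and cardiac atrium (3816 to 12128) varied more between pools. Sums were also taken for markers of adrenal cortex (387 to 637), Schwann cells (966 to 1190), kidney tubule (146 to 332) and hepatocytes (110 to 238). Readings at the floor count in these sums at its value. Of the 3 hepatocyte markers on the array 1 passed the filter, and Apoa1 was at the floor in 12 pools and Ttr in 8. The kidney marker Kap was at the floor in 4 pools. In pooled tissue, fewer cells of a type and less RNA per cell cannot be told apart.

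**Figure D1:**
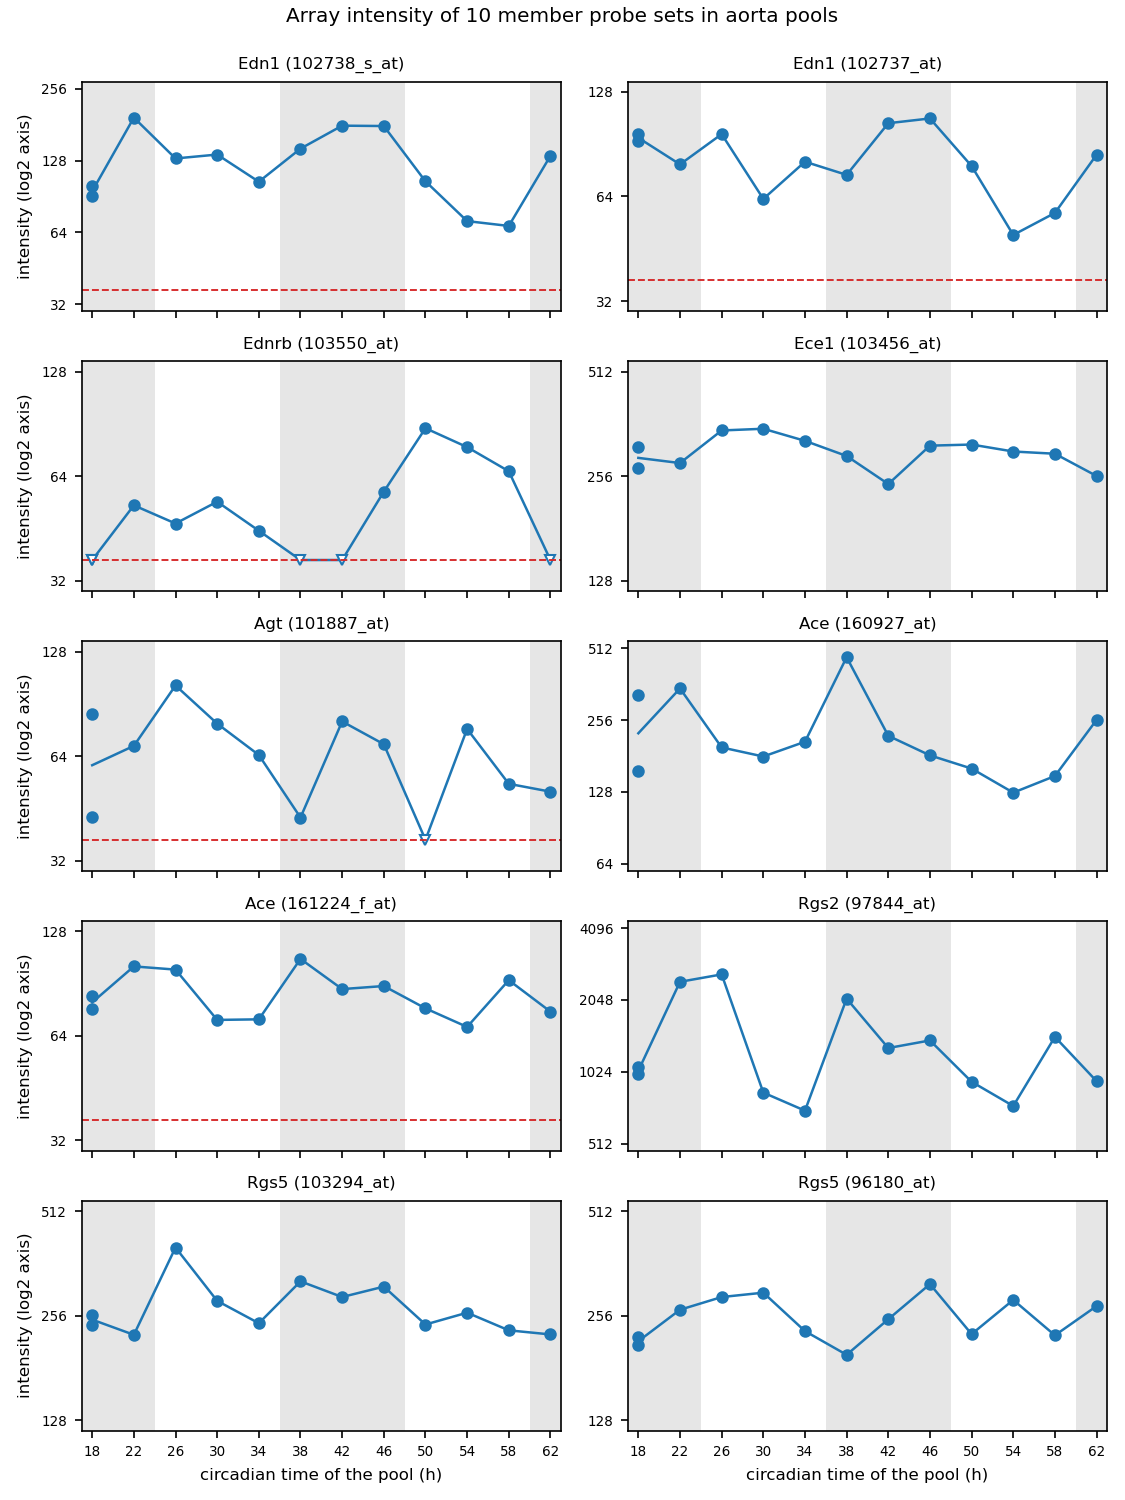
Intensity (log2 axis, 1 panel per probe set) against the circadian time of the pool for the 10 member probe sets tested. Filled circles are arrays, open triangles are arrays below the floor (dashed red line at 36.7), the line joins the 12 pools, and grey marks subjective night (CT12 to CT24 and its repeats). Rgs2 ran from 704 to 2618, while Ece1 stayed between 243 and 351.

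None of the 10 probe sets passed the test for a 24-h rhythm. A cosine and sine of 24 h were fitted to the 12 pools with limma, and p-values were adjusted by the Benjamini-Hochberg method over all 7453 probe sets that passed the filter. Over the whole array 26 probe sets, 0.349%, passed at an adjusted p below 0.05. The lowest adjusted p among the members was 0.417, for Ednrb. At an unadjusted p below 0.05 there were 3 of 10 member probe sets, 1 for Ednrb and both for Edn1, against 9.96% of all probe sets. The median fitted amplitude, the distance from mean to peak, was 0.28 (log2) over the 10 and 0.18 over all 7453. A p above the threshold does not show that a rhythm was lacking, and each p measures only the spread of single pools around the curve.

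Edn1, the ligand, read lowest at CT54 and CT58 in both of its probe sets, while CT42 and CT46 were among the 3 highest pools of one and the 2 highest of the other. The first probe set (102738_s_at, whose suffix marks probes shared between transcripts) read 90.5 and 100.2 on the CT18 arrays, 194 at CT22, 131 at CT26, 136 at CT30, 104 at CT34 and 144 at CT38. On the second day it read 179 at CT42, 179 at CT46, 105 at CT50, 71.4 at CT54, 68.1 at CT58 and 134 at CT62. The dip at CT54 and CT58 had no match at CT30 and CT34, the same times on the first day. Circadian time 22 was highest on average, at 186 ± 10.6 (SD, n = 2 pools), above both pools of time 14, the next in order, but not above the CT42 pool. Time 10 was lowest, at 86.2 ± 25.6, and the other 4 of the 5 steps in the order joined times whose pools overlapped. The curve peaked at CT20.3 with an amplitude of 0.45 ± 0.16 (log2 ± SE, n = 12 pools, p = 0.0494, adjusted p = 0.501).

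The other Edn1 probe set (102737_at) gave a similar fitted peak, but CT22 was not among its high pools. It read 92.2 and 96.7 at CT18, 79.2 at CT22, 96.8 at CT26, 63.0 at CT30, 80.6 at CT34 and 73.9 at CT38, then 104 at CT42, 107 at CT46, 78.3 at CT50, 49.6 at CT54, 57.4 at CT58 and 84.4 at CT62. Its highest time was 18, at 99.3 ± 6.77, and its lowest 6, at 56.3 ± 9.46 (SD, n = 2 each), and all 5 neighbours in the order overlapped. The amplitude was 0.37 ± 0.13 and the peak CT19.8 (n = 12 pools, p = 0.0378, adjusted p = 0.468). Over the 12 pools the profiles of the probe sets had Pearson's r = 0.67 (permutation p = 0.0224, adjusted over 3 such pairs 0.0561) and Spearman's rho = 0.46 (permutation p = 0.134, adjusted 0.200). Without CT54 and CT58, the pools farthest from the median, r was 0.22, so the relation rests on those pools.

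Ednrb, the B receptor, was at the floor in 4 pools, and these were exactly the 4 pools of circadian times 14 and 18. Its probe set (103550_at) read 23.0 and -3.87 on the CT18 arrays, 2.65 at CT38, 12.7 at CT42 and 12.6 at CT62. In the other 8 pools it read 52.8 at CT22, 46.8 at CT26, 54.1 at CT30 and 44.6 at CT34, and then 57.8 at CT46, 88.0 at CT50, 77.6 at CT54 and 66.2 at CT58. The pools at times 14 and 18 did not overlap with any other. CT50 stood at 2.40 times the floor, and so at least 2.40-fold above the pools at times 14 and 18. The curve peaked at CT4.0 with an amplitude of 0.47 ± 0.15 (n = 12 pools, p = 0.0245, adjusted p = 0.417). The size depends on the floor, since it was 1.09 with the floor at the 10th percentile, 0.12 with it at the 30th and 0.91 on an inverse hyperbolic sine scale without a floor. The adjusted p ran from 0.170 to 0.731 over the alternatives tried.

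Ece1, the enzyme that activates endothelin-1, varied little. Its probe set (103456_at) read 310 and 270 at CT18, 279 at CT22, 347 at CT26, 351 at CT30, 324 at CT34 and 293 at CT38. It then read 243 at CT42, 314 at CT46, 316 at CT50, 302 at CT54, 297 at CT58 and 256 at CT62. The span from lowest to highest pool was 1.44-fold, and its SD over the pools, 0.16 (log2), was larger than that of only 12.0% of the probe sets tested. Times 2 and 6 were highest on average, at 331 ± 21.9 and 326 ± 34.7, and times 14 and 18 lowest, at 275 ± 25.7 and 267 ± 33.0 (SD, n = 2 each), with all neighbours in the order overlapping. The amplitude was 0.17 ± 0.07 and the peak CT4.6 (adjusted p = 0.567).

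**Figure D2:**
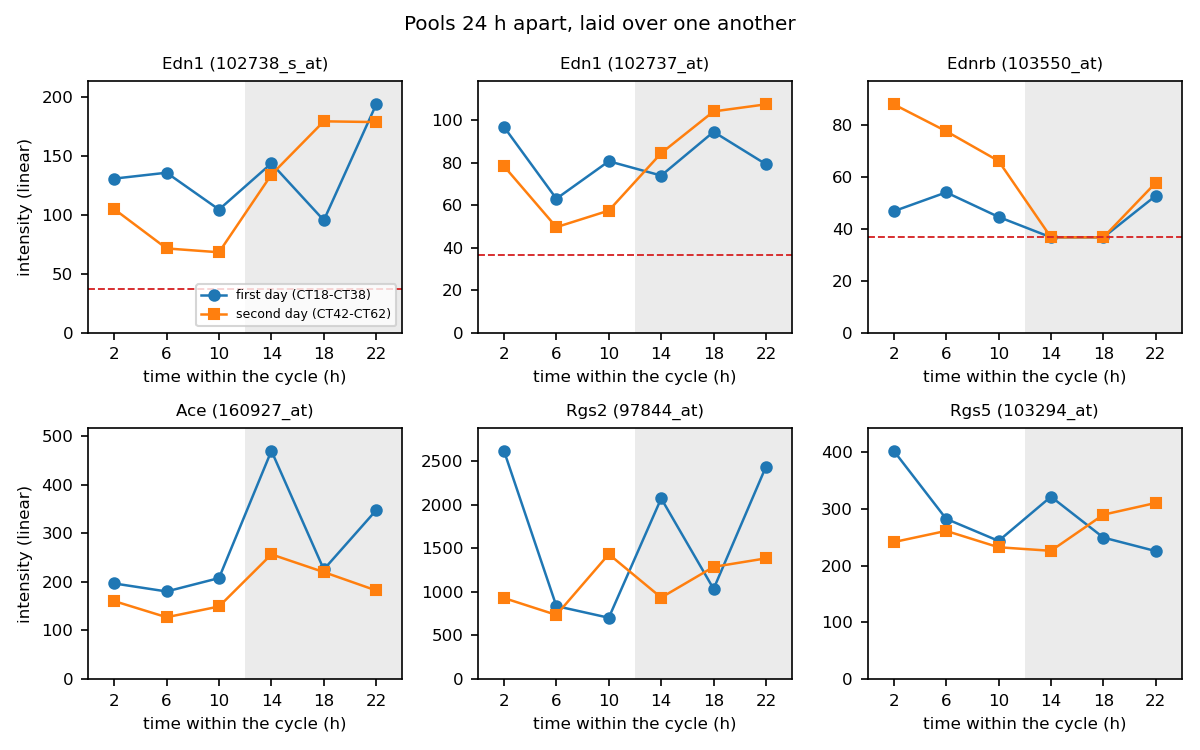
Intensity (linear axis) against time within the cycle for 6 member probe sets, with the first day (CT18 to CT38) as blue circles and the second (CT42 to CT62) as orange squares; values below the floor are drawn at the floor (dashed), and grey marks subjective night. Ednrb lay at the floor at times 14 and 18 on both days, while Rgs2 at time 2 read 2618 on the first day and 930 on the second.

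Ace, which forms angiotensin II, was highest at CT38 and CT22. Its brightest probe set (160927_at) read 347 at CT22, 197 at CT26, 180 at CT30, 208 at CT34 and 469 at CT38, and then 220 at CT42, 182 at CT46, 160 at CT50, 127 at CT54, 149 at CT58 and 256 at CT62. The CT18 arrays read 156 and 326, a 2.09-fold difference between arrays of 1 time point, larger than that of 94.1% of the probe sets tested. By time within the cycle, 14 was highest, at 363 ± 151, and 6 lowest, at 154 ± 37.5 (SD, n = 2 each). Pools overlapped at 4 of 5 steps of the order, and the exception lay between times 18 and 2. The amplitude was 0.45 ± 0.16 and the peak CT16.9 (n = 12 pools, p = 0.0521, adjusted p = 0.508). The summed atrial markers stood at 11647 at CT38 and at 12128 at CT42, where Ace read 469 and 220. The slope of this probe set on the atrial markers was 0.46 ± 0.23 (log2 per log2, SE, n = 12 pools, limma p = 0.0621, adjusted p = 0.999). The cause of the CT38 level was not tested.

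A dimmer Ace probe set (161224_f_at, whose suffix marks probes that may detect related sequences) read 76.5 and 83.4 at CT18, 101.4 at CT22, 99.3 at CT26, 71.1 at CT30, 71.4 at CT34 and 107 at CT38. It then read 87.2 at CT42, 89.0 at CT46, 76.8 at CT50, 67.9 at CT54, 92.5 at CT58 and 75.1 at CT62. Its lowest and highest pools were those of the brighter one, but its amplitude was only 0.14 ± 0.12 (adjusted p = 0.830). The profiles of both had r = 0.61 (permutation p = 0.0374, adjusted 0.0561) and rho = 0.50 (permutation p = 0.105, adjusted 0.200). Without CT22 and CT38 r was 0.13, so this relation too rests on a pair of pools.

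Agt (101887_at), the precursor of the angiotensins, had its highest and lowest pools at the same time of day. It read 42.8 and 84.8 on the CT18 arrays, 68.5 at CT22, 102 at CT26, 79.3 at CT30, 64.4 at CT34 and 42.6 at CT38. On the second day it read 80.5 at CT42, 69.2 at CT46, 0.327 at CT50, 76.6 at CT54, 53.2 at CT58 and 50.5 at CT62. These were CT26 and CT50, which was below the floor. The CT18 arrays differed 1.98-fold, and the amplitude was 0.20 ± 0.18 (adjusted p = 0.851). It was 0.42 without CT50, 0.091 without CT26, 0.12 without CT38 and 0.023 with the floor at the 10th percentile. Both pools of time 14 lay below all pools of time 10, the only step in the order without overlap.

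Rgs2, the regulator that acts on Gq, had the widest swing among the members that never reached the floor, 3.72-fold between pools. Ace 160927_at was close to it, at 3.69-fold. The Rgs2 probe set (97844_at) read 1000.3 and 1070 at CT18, 2438 at CT22, 2618 at CT26, 837 at CT30, 704 at CT34 and 2072 at CT38. On the second day it read 1287 at CT42, 1385 at CT46, 930 at CT50, 736 at CT54, 1433 at CT58 and 935 at CT62. The 3 highest pools were all of the first day, and CT38 was separated from CT22 and CT26 by the low pools CT30 and CT34. At time 2 the pools differed 2.82-fold (CT26 against CT50). Time 22 was highest, at 1911 ± 744, and 6 lowest, at 787 ± 71.8 (SD, n = 2 each), and all 5 neighbours in the order overlapped. The curve peaked at CT21.0 with an amplitude of 0.43 ± 0.22 (adjusted p = 0.675).

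The SD of Rgs2 over the 12 pools, 0.65 (log2), was larger than that of 86.7% of the probe sets tested. The CT18 arrays differed by only 1.07-fold, while pools 24 h apart had an SD of 0.67. The means of the 6 times had an SD of 0.45, against the 0.47 that means of 2 pools would have from the spread within pairs alone. The summed endothelial markers were highest in CT26 (3235) and CT22 (2547), both high in Rgs2. They stood at 2073 in CT38 and at 2450 in CT54, where Rgs2 was high and low. Of this list Cldn5 stood at 552 in CT26 and 542 in CT22, against at most 267 (CT46) in the other pools. Cdh5 gave more of both sums, at 919 and 674. Cdh5, Vwf (593) and Tek (168) were also highest in CT26. Eng and Tie1 were highest in CT58, Kdr in CT46 and Pecam1 in CT38. Kdr read 145 in CT26 and 162 in CT22, below its mean of 204. The cause was not tested.

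The Rgs5 probe sets spanned 1.78-fold and 1.60-fold between pools. The first (103294_at) read 258 and 241 at CT18, 225 at CT22, 402 at CT26, 282 at CT30, 243 at CT34 and 321 at CT38. It then read 290 at CT42, 310 at CT46, 241 at CT50, 261 at CT54, 232 at CT58 and 226 at CT62. CT26 stood highest, and this pool was also highest in the summed markers of smooth muscle (16037), endothelium (3235) and pericytes (1080). Most of that pericyte sum was Mcam (734), while Pdgfrb, Abcc9 and Notch3 were highest at CT46, CT58 and CT62. By limma, the slope of this probe set was 0.54 ± 0.49 on the smooth muscle markers (SE, adjusted p = 0.999). On the pericyte markers it was 0.08 ± 0.31 (adjusted p = 0.937), and the cause of the CT26 level was not tested. The amplitude was 0.11 ± 0.11 (adjusted p = 0.881), and it ran from 0.041 without CT26 to 0.18 without CT38. The other Rgs5 probe set (96180_at) read 222 and 210 at CT18, 266 at CT22, 289 at CT26, 298 at CT30, 231 at CT34 and 197 at CT38, its lowest. It then read 250 at CT42, 315 at CT46, its highest, and 226 at CT50, 284 at CT54, 225 at CT58 and 273 at CT62 (amplitude 0.16 ± 0.09, adjusted p = 0.697). The profiles of the Rgs5 probe sets had r = 0.26 (permutation p = 0.419, adjusted 0.419) and rho = 0.24 (permutation p = 0.461, adjusted 0.461), and r was 0.54 without CT26 and CT38. In both, all 5 neighbours in the order of times overlapped.

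**Figure D3:**
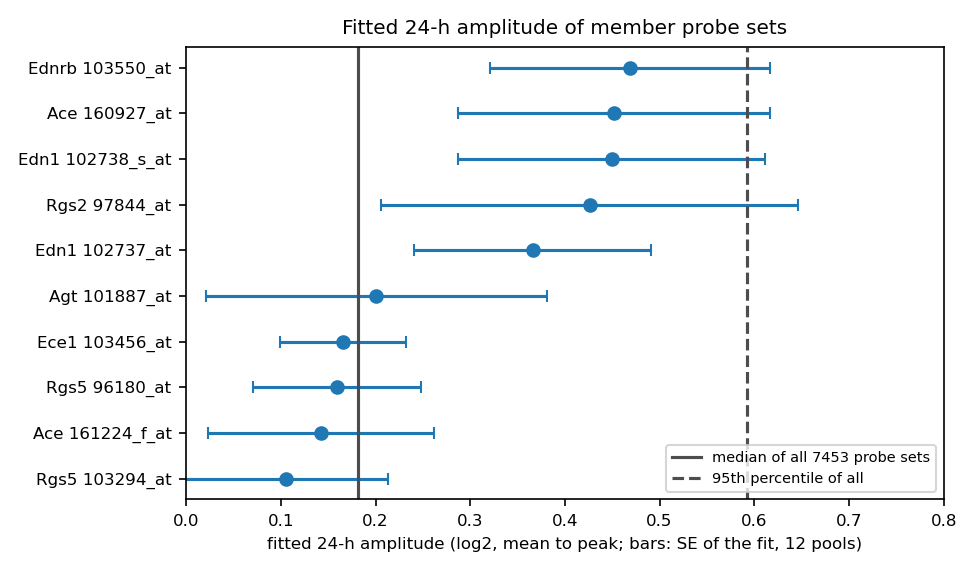
Fitted 24-h amplitude (log2, mean to peak) of the 10 member probe sets with the SE of the fit over 12 pools, beside the median (0.18, solid line) and the 95th percentile (0.59, dashed) of all 7453 probe sets. 5 probe sets lie between 0.37 and 0.47 and 5 between 0.11 and 0.20, and none reaches the 95th percentile.

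The spread of each probe set was set out in 3 ways, between pools of the same time 24 h apart, between the means of the 6 times, and between the CT18 arrays. A mean of 2 pools varies less than a single pool, so the SD within pairs was divided by the square root of 2 before it was set beside the SD of the time means; it includes any difference between days. The SD of the time means was then larger for Edn1 (0.40 against 0.30 for 102738_s_at and 0.31 against 0.17 for 102737_at), Ednrb (0.37 against 0.25, with values at the floor), Ace 160927_at (0.43 against 0.30) and Ece1 (0.13 against 0.09). It was smaller for Agt (0.26 against 0.32) and Rgs5 103294_at (0.12 against 0.21). For Rgs2 (0.45 against 0.47), Ace 161224_f_at (0.16 against 0.16) and Rgs5 96180_at (0.16 against 0.14) the values lay within 0.03 of each other. These are descriptions, and the test of time is the 24-h fit. The CT18 arrays differed by 1.06 (log2) for Ace and 0.99 for Agt. The median of this difference over the 7453 probe sets was 0.19, and for the other 8 members it was 0.20 or less.

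**Figure D4:**
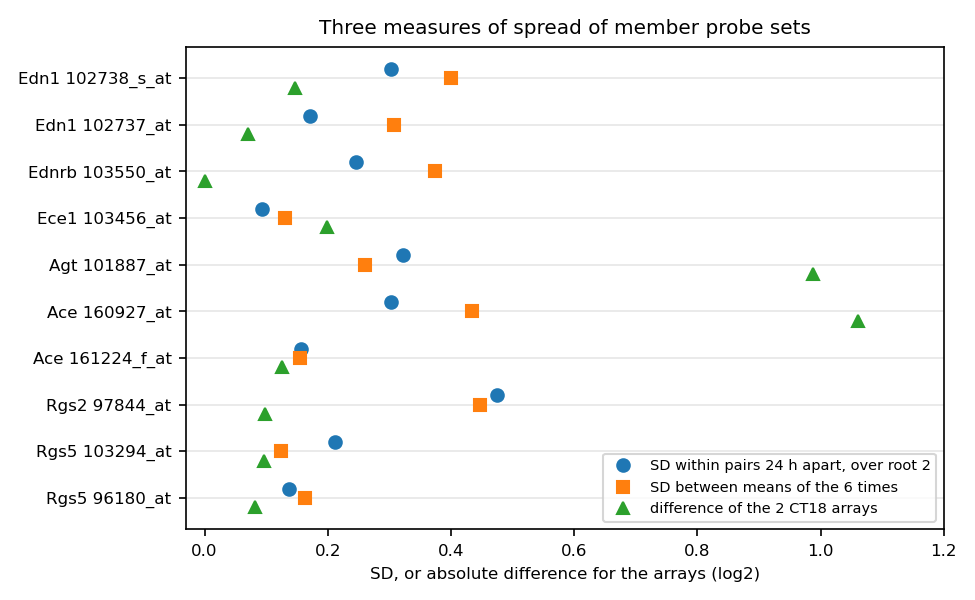
Spread of the 10 member probe sets on the log2 scale, as the SD within pairs of pools 24 h apart divided by the square root of 2 (circles), the SD between the means of the 6 times (squares) and the absolute difference of the CT18 arrays (triangles; 0 for Ednrb, where both arrays were below the floor). Agt and Ace stand out by their array difference (0.99 and 1.06), and Rgs2 has both the highest circle (0.47) and the highest square (0.45).

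The second day (CT42 to CT62) was compared with the first (CT18 to CT38), with the 24-h terms in the fit, to see whether levels drifted as darkness went on. None of the 10 probe sets passed, and 0% of all probe sets did (lowest adjusted p 0.416 over all). By limma 1 member, Ace 160927_at, had an unadjusted p below 0.05, against 7.54% of all probe sets. Its second-day level was lower by a log2 difference of -0.52 ± 0.19 (SE, n = 12 pools, p = 0.0182, adjusted p = 0.640), from a mean of 254 to 178. This Ace probe set was lower on the second day in 6 of 6 pairs of pools 24 h apart, or in 5 of 6 if only the first CT18 array is used. With the 6 circadian times as blocks, a fit added after the values had been seen, its SE was 0.15 and its adjusted p 0.579. The dimmer Ace probe set (161224_f_at) had a difference of -0.10 ± 0.17 (limma, adjusted p = 0.889). It read higher on the second day in 2 of 6 pairs. Ednrb was higher by 0.36 ± 0.19 (adjusted p = 0.691), and in 4 of 6 pairs, the other 2 being at the floor on both days. Rgs2 had a difference of -0.38 ± 0.31 (adjusted p = 0.785) and read higher on day 2 in 2 of 6 pairs. It was -0.19 without CT26, -0.22 without CT38 and -0.59 without CT58. The median difference was -0.12 over the members and -0.03 over all probe sets.

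A component of 12 h, which would give a pair of peaks per cycle, was tested as well. No member passed, and 0% of all probe sets did. Neither did any member have an unadjusted p below 0.05, against 5.60% of all. The lowest adjusted p was that of Rgs2 (12-h amplitude 0.39 ± 0.21, log2, SE; adjusted p = 0.922), with fitted peaks at CT0.3 and CT12.3. A difference in the 24-h rhythm between days was also tested, after the values had been seen. Here too 0 of 10 members and 0% of all probe sets passed with limma, with 0 of 10 and 6.98% at an unadjusted p below 0.05. The lowest adjusted p was 0.710 for Edn1 102738_s_at, and that of Rgs2 was 0.825.

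The members' levels were also set against the mean log2 level of marker lists in each pool, by a slope fitted across all probe sets with limma. For smooth muscle, fat, skeletal muscle, thymocyte and atrial markers 0 of 50 pairs of member and list passed (lowest adjusted p 0.816), and 0 of 50 had an unadjusted p below 0.05, against 4.96% of all probe sets for smooth muscle, 5.14% for fat, 3.21% for skeletal muscle, 7.89% for thymocytes and 4.62% for atrium. The share of all probe sets that passed was 0% for smooth muscle and for fat, 0.416% for skeletal muscle, 0.832% for thymocytes and 0.107% for atrium. Endothelial and pericyte markers were added after the values had been seen, and 0 of 20 pairs passed (0% of all probe sets for both lists). At an unadjusted p below 0.05 there were 2 of 20, both on the endothelial markers, where 4.92% of all probe sets reached it (9.92% for pericyte markers). Rgs2 had a slope of 2.04 ± 0.56 on the endothelial markers (log2 per log2, SE, n = 12 pools, p = 0.00264, adjusted p = 0.820), and Rgs5 103294_at one of 0.71 ± 0.30 (n = 12 pools, p = 0.0306, adjusted p = 0.958). Within that list Cldn5 ran from 36.7 at CT34 to 552 at CT26, the lowest and highest pools of Rgs2.

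Probe sets with 1 gene that passed the filter were searched by Pearson's r. The genes whose profiles were most like those of the members over the 12 pools are named, so each r is the top of a long ranking and only a description. For Rgs2 these were Ace by its dimmer probe set (161224_f_at, r = 0.96), the pseudogene Glns-ps1 (0.90) and Cyp1b1, a cytochrome P450 (0.86). For Rgs5 103294_at they were Mylk, the kinase that activates smooth muscle myosin (0.87), Rps6kc1 (0.80) and Ngrn (0.78). For Ace 160927_at they were Sowahc (0.89), Sesn1 (0.88) and Ranbp9 (0.87), and for Edn1 102738_s_at Mrps18a (0.87), Usp14 (0.87) and Ang (0.85). Ednrb was most like Uck1 (0.90), Hic1 (0.85) and Gimap4 (0.83), Ece1 most like Sytl4 (0.97), Abhd17a (0.88) and Nectin2 (0.84), and Agt most like Bag1 (0.86), Eloa (0.84) and Prrc1 (0.82).

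None of the other genes of these pathways passed the rhythm test. Of 102 genes listed in 5 groups, 69 were on the array and 49 passed the filter, and none of the 49 passed for a 24-h rhythm or a day difference. Over all probe sets 0.349% passed for the rhythm and 0% for the day. At an unadjusted p below 0.05 there were 5 of 49 for the rhythm, near the 9.96% of all probe sets. Of 6 further endothelin genes 3 were on the array, and the ligand genes Edn2 and Edn3 were at the floor in all pools. Mme, the peptidase neprilysin that degrades endothelin and angiotensin, had an amplitude of 0.14 ± 0.25 (adjusted p = 0.955). Of 21 renin-angiotensin genes 9 passed the filter. Enpep, the aminopeptidase that trims angiotensin II, had the smallest p, with a fitted peak at CT2.4 and 0.29 ± 0.11 in amplitude (adjusted p = 0.508). Agtr2, another angiotensin receptor gene, was at the floor in all pools.

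Of 16 other RGS genes 7 passed the filter. The smallest p was that of Rgs7, a regulator best known from neurons, with a fitted peak at CT7.4 and 0.27 ± 0.08 in amplitude (adjusted p = 0.349). Rgs16, a clock output in other tissues that is named after its values were seen, had 0.35 ± 0.14 and CT20.8 (adjusted p = 0.574). Of 30 G protein and calcium effectors 21 passed the filter, and Gnai2, an inhibitory G protein subunit, had 0.19 ± 0.05 and CT5.4 (adjusted p = 0.246). Of 29 other vasoactive genes 11 passed the filter, and Nppb, a natriuretic peptide of cardiac muscle, had 0.65 ± 0.21 and CT16.4 (adjusted p = 0.419). Nppb had a mean of 79.7 and reached the floor, so the size of its amplitude depends on the floor. Circadian times 14 and 18 include CT38 and CT42, the pools with the highest summed atrial markers (11647 and 12128). The cause was not tested. Nos3, the endothelial nitric oxide synthase, was below the filter, at a mean of 37.6. The median amplitudes of the groups with more than 1 gene measured were 0.20, 0.15, 0.19 and 0.21, in the order given, against 0.18 over all probe sets.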

How the data were processed

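The deposited table gives 1 linear intensity per probe set and array, already scaled by the authors: with the outer 2% of probe sets at each end left out, the mean intensity was 200.2 on every array. The software was not given in the sources used here. Between 21.3% and 24.2% of an array's intensities were at or below 0. The 66 control probe sets were left out. Values below the floor were set to it, log2 was taken and the CT18 arrays were averaged. Probe sets with a mean at or above the 40th percentile of means were tested. Of 12422 probe sets, 10833 had 1 gene, 396 several and 1193 were not listed. RefSeq held 10817 of the 10833 and changed 0 symbols.

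Rhythm, day, 12-h and marker fits used limma 3.58.1 in R 4.3.3 with an intensity trend (9, 8, 7 and 10 residual degrees of freedom) and Benjamini-Hochberg adjustment at 0.05. Correlations between probe sets used 100000 two-sided permutations. Each time point is 1 pool. Floors, filters, scalings, the variance trend, covariates and left-out pools were varied. Every member probe set is named, with the 3 most similar genes for each measured member, and, for each pathway list, the genes past the threshold or else the 1 with the smallest p. Rgs16, Nos3 and genes at the floor were named outside this rule, after their values were seen. The members and lists were chosen with earlier results of these data known.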

Additional observations from a re-analysis of the deposited data

How the results depend on the processing

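For the 24-h rhythm, 0 members passed in any of 24 alternatives (lowest adjusted p 0.170 to 0.626 per alternative), while the count over all probe sets ran from 4 to 40 against 26; it was 4 with no filter or no trend, 5 with arrays centred on their medians, 11 with tissue markers as covariates, 8 to 17 without CT18, CT34, CT42, CT46, CT54, CT58 or CT62, and 40 without CT30. For the day difference 0 members passed in 24 alternatives, for the 12-h component and the difference between days 0 in 23 each, and for the marker slopes 0 in 22. The day difference of Edn1 102737_at (-0.06) changed sign with the floor at the 30th percentile (0.015), arrays centred on their medians (0.018) and quantile normalization (0.026), and without CT26, CT34 or CT54, within a range of -0.14 to 0.016 over left-out pools. That of Agt (-0.19) did so without CT50 (0.034), within a range of -0.32 (without CT42) to 0.034. The cause was not tested. With tissue markers as covariates the peak moved beyond its SE for Agt (CT1.6 to CT14.9), Rgs2 (CT21.0 to CT0.1), Rgs5 96180_at (CT1.8 to CT15.2), Ace 161224_f_at (CT19.5 to CT0.7) and Edn1 (CT20.3 to CT17.9 and CT19.8 to CT18.4). The Agt peak also moved with the floor at the 10th percentile (CT21.9) and on the inverse hyperbolic sine scale (CT16.2), that of Rgs5 103294_at without CT26 (CT0.5 to CT19.2) and that of Ace 160927_at without CT38 (CT16.9 to CT18.3). No paired analysis by replicate number was possible because only CT18 has a second one. With pools 24 h apart paired through their circadian time, 0 members and 0 of all probe sets passed for the day difference (lowest adjusted p of a member 0.579), and at an unadjusted p below 0.05 there were 1 member and 8.06% of all. Signal close to the floor limits Ednrb, Agt and the dim Ace and Rgs4 probe sets.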
